A study of Bos taurus with 6 samples.

Results

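The dystrophin glycoprotein complex was examined in longissimus thoracis (LT) muscle through 8 of its genes, DMD, DAG1, SGCA, SGCB, SGCD, SSPN, SNTB1 and DTNA. They were taken by gene symbol from a list of dystrophin-associated genes, and each of the 8 was found once among the 22839 different symbols of the count files. Each of the 6 libraries came from 1 Hanwoo (Korean native cattle) steer raised on commercial feed. The high-NFMP group (high number of fine marbling particles) held steers 3-8, 10-8 and 10-9, aged 32.5, 33.8 and 34.5 months. The low-NFMP group held steers 3-1, 3-3 and 10-16, aged 37.8, 33.7 and 35.4 months. The particles are flecks of intramuscular fat, and the comparison of the groups asks which transcripts differ with the number of fine particles. The paper reports that the sequenced high-NFMP steers also had a higher marbling score, a larger rib eye area and a higher auction price. Differences with these traits cannot be told apart from differences with the number of fine particles. No treatment was given, and the samples are whole muscle, so fewer cells of a type and less RNA per cell cannot be told apart.

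The complex spans the membrane of the muscle fibre and ties the actin cytoskeleton inside to the laminin of the basement membrane outside. Dystrophin binds actin, β-dystroglycan and the cytoplasmic partners, α-dystroglycan binds laminin through its sugar chains, and the sarcoglycans with sarcospan stabilise the assembly. Syntrophins and dystrobrevins sit on the inner face and recruit signalling proteins. Loss of several of these genes causes muscular dystrophy, because the membrane tears when the fibre contracts.

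The counts of a library summed to between 16283873 and 17192750 reads assigned to genes. The markers of skeletal muscle fibres (10 of 10 tested, ACTA1, CKM and titin among them) summed to between 112600 and 136400 CPM (counts scaled to an equal effective library size) in all 6 libraries, as the tissue label says. Summed adipocyte markers lay between 270.0 and 661.9 CPM in the high-NFMP steers, the highest value being that of steer 3-8, and between 254.2 and 328.4 CPM in the low-NFMP steers. The log2 fold changes of the 6 adipocyte markers were all positive, with a median of 0.62, and 3 of them (ADIPOQ, CIDEC and PLIN4) had an unadjusted p below 0.05 by edgeR without reaching a 2-fold difference. Of the 5 nerve markers, 3 were tested (S100B and PMP22 among them) and none had an unadjusted p below 0.05, and the sums of the 5 were 71.94 to 102.1 CPM against 64.37 to 84.94 CPM. Blood and immune markers summed to at most 11.58 CPM, with PTPRC and CD68 tested of 5. The 6 smooth muscle and pericyte markers summed to between 103.0 and 146.0 CPM in the high-NFMP group and between 87.5 and 123.3 CPM in the low-NFMP group. Fibroblast markers reached 719.5 to 908.6 CPM against 563.0 to 742.1 CPM, where PDGFRA alone had an unadjusted p below 0.05 (0.0391 by edgeR, lower with high NFMP), and endothelial markers 55.57 to 85.06 CPM against 56.91 to 74.16 CPM. The part of these other cells in the results below was not tested.

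None of the 8 genes differed between the high- and low-NFMP groups at the threshold of the study's methods, a fold change above 2 together with an unadjusted p below 0.05. Across all 15039 tested genes, 2.53% were higher and 1.36% were lower at that threshold in edgeR's quasi-likelihood test. At an unadjusted p below 0.05 alone, 1 of the 8 (SGCB) was counted, against 11.5% of all tested genes. At a Benjamini-Hochberg adjusted p below 0.05 none of the 8 was counted, against 0.685% of all tested genes. DESeq2 and quantile normalization with limma also called none of the 8, and neither gave any of them an unadjusted p below 0.05. The median log2 fold change (high over low) of the 8 genes was -0.06, with values from -0.39 to 0.22, and the median of all tested genes was 0.02. The size of the difference regardless of sign had a median of 0.12 in the 8 genes and 0.26 in all tested genes, where low counts add scatter. Among the 2098 tested genes with a mean of at least 900 normalized counts it was 0.18. The 95% intervals of all 8 genes lay inside a 2-fold difference in either direction, the outermost bounds being 0.59-fold for SGCB and 1.53-fold for SGCA. With 3 steers against 3, an exact permutation test of 1 gene cannot give a p below 0.1, and the p-values of edgeR borrow information on variability from all genes.

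**Figure D1:**
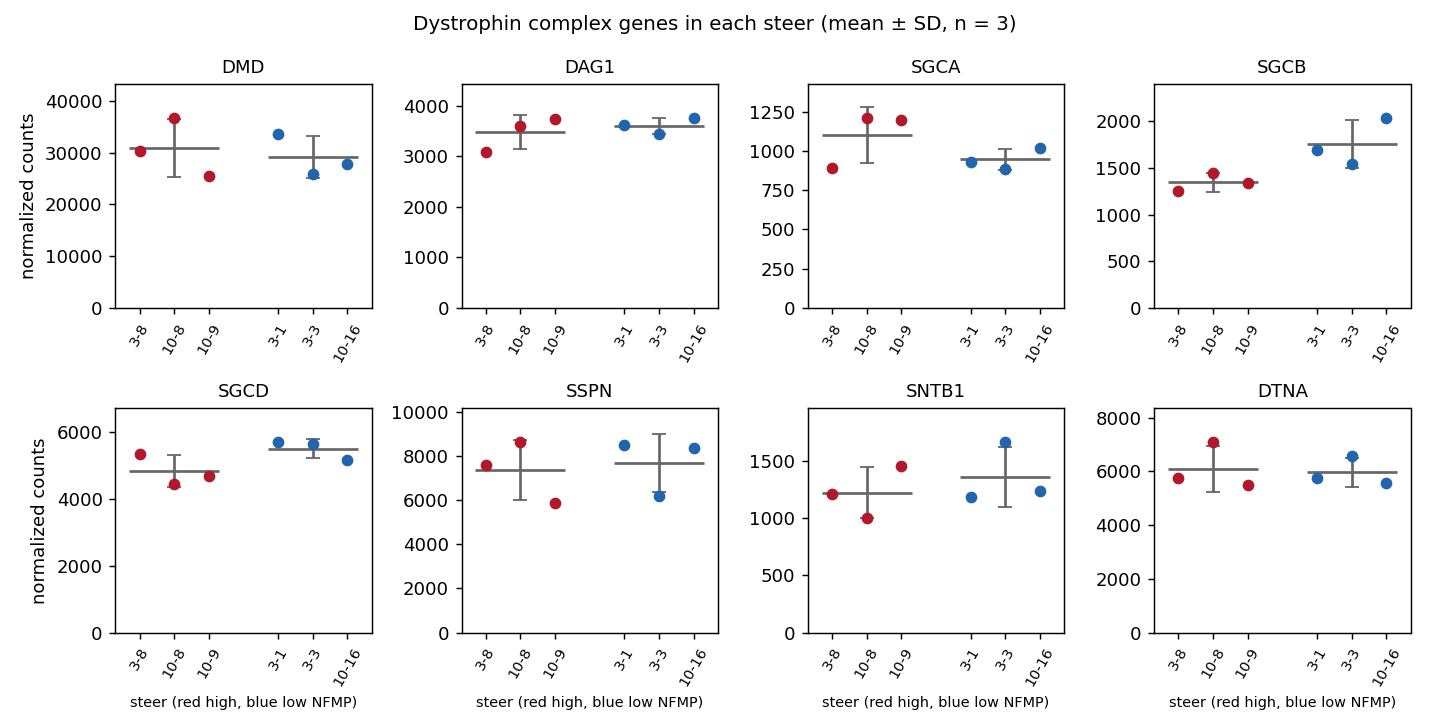
Normalized counts (vertical axes, linear from 0) of the 8 complex genes in each steer, with high-NFMP steers in red and low-NFMP steers in blue. Grey lines and bars are the group mean and SD (n = 3), and only for SGCB do the points of the groups not overlap.

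Dystrophin itself (DMD) gave 30352 normalized counts in steer 3-8, 36708 in 10-8 and 25510 in 10-9, and 33654, 25909 and 27721 in the low-NFMP steers 3-1, 3-3 and 10-16. Normalized counts are reads scaled to the mean effective library size with the trimmed mean of M-values method (TMM). The highest and the lowest value both belonged to the high-NFMP group, so the groups overlapped fully. The means were 30856 ± 5616 (SD, n = 3) and 29095 ± 4051 (SD, n = 3), and their log2 fold change was 0.08 (standard error, SE, of 0.21, edgeR adjusted p = 0.903). The 95% interval ran from 0.78-fold to 1.45-fold. RefSeq places LOC521092 over DMD on the ARS-UCD2.0 assembly. Its counts were 9, 1 and 4 (high NFMP) and 14, 10 and 21 (low NFMP), with a log2 fold change of -1.57 (unadjusted p = 0.0401 by edgeR), which passes the threshold in the lower direction on very few reads.

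Dystroglycan (DAG1), the laminin receptor at the centre of the complex, was the steadiest of the 8 across the 6 steers. It had 3091, 3601 and 3727 normalized counts in steers 3-8, 10-8 and 10-9 and 3613, 3434 and 3759 in steers 3-1, 3-3 and 10-16. Steer 3-8 stood lowest, and the remaining 5 steers lay close together. The means were 3473 ± 337 (SD, n = 3) and 3602 ± 163 (SD, n = 3), and the log2 fold change was -0.05 (SE 0.18, edgeR adjusted p = 0.932). The long noncoding RNA gene LOC112443525 overlaps DAG1 in ARS-UCD2.0 and was counted 149, 192 and 376 times against 181, 217 and 202 times. How many reads fell on both genes was not measured.

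Of the sarcoglycans, β-sarcoglycan (SGCB) showed the largest difference among the 8 genes. This subunit forms the core of the sarcoglycan group together with the δ subunit. It had 1250, 1448 and 1335 normalized counts in the high-NFMP steers and 1687, 1544 and 2035 in the low-NFMP steers. All 3 high-NFMP values were under the lowest low-NFMP value. Among all tested genes 9.16% were separated in this direction, with another 7.97% separated in the other direction. The means were 1344 ± 99.6 (SD, n = 3) and 1756 ± 253 (SD, n = 3), a log2 fold change of -0.39 (SE 0.18, edgeR unadjusted p = 0.0489 and adjusted p = 0.433). The level in the high-NFMP group was 0.77-fold that of the low-NFMP group, with a 95% interval from 0.59-fold to 0.999-fold. The unadjusted p moved above 0.05 in 12 of the 15 alternative fits, reaching 0.283 without steer 10-16, the highest of the 6 steers, and 0.20 with age as a term. Steer 3-8 against 3-1 and 3-3, whose labels begin with 3, gave a log2 ratio of high over low means of -0.37. Steers 10-8 and 10-9 against 10-16 alone, whose labels begin with 10, gave -0.55. The labels do not say what this first number marks.

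α-Sarcoglycan (SGCA), the adhesion-like subunit found almost only in striated muscle, had 892.8, 1211 and 1198 normalized counts in the high-NFMP steers and 930.1, 886.5 and 1022 in the low-NFMP steers. Steers 10-8 and 10-9 were above all low-NFMP steers, whereas 3-8 lay among them. The log2 fold change was 0.22 (SE 0.19, edgeR adjusted p = 0.685). δ-Sarcoglycan (SGCD) had 5364, 4460 and 4707 normalized counts against 5697, 5651 and 5185. Steer 3-8 exceeded the low-NFMP steer 10-16, so the groups overlapped, and the log2 fold change was -0.19 (SE 0.18, edgeR adjusted p = 0.724). Sarcospan (SSPN), the small membrane protein that binds the sarcoglycans, had 7591, 8624 and 5897 against 8515, 6197 and 8371. Its lowest value was in 10-9 and its second lowest in 3-3, 1 steer of each group. The log2 fold change was -0.06 (SE 0.21, edgeR adjusted p = 0.932).

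On the cytoplasmic side, β1-syntrophin (SNTB1), an adaptor with a PDZ domain, had 1215, 1006 and 1456 normalized counts in the high-NFMP steers and 1185, 1666 and 1237 in the low-NFMP steers. The spread within each group was large, with coefficients of variation of 18.4% and 19.4%. The log2 fold change was -0.15 (SE 0.20, edgeR adjusted p = 0.810). α-Dystrobrevin (DTNA), a relative of dystrophin that anchors syntrophins, had 5741, 7079 and 5495 against 5747, 6577 and 5566. Its value was highest in 10-8 and next in 3-3, and the remaining 4 steers differed little. The log2 fold change was 0.03 (SE 0.19, edgeR adjusted p = 0.961).

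**Figure D2:**
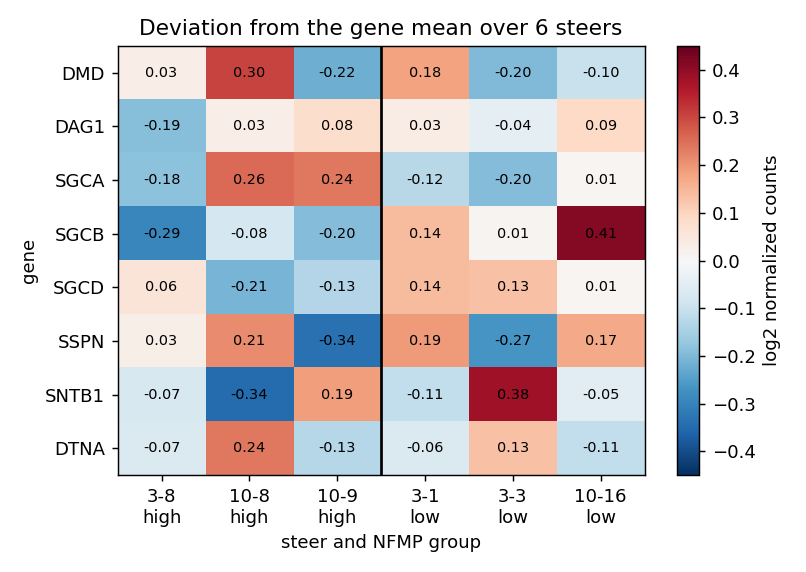
Each cell gives the log2 normalized count of a gene (rows) in a steer (columns, high NFMP left of the line) minus the mean of that gene over the 6 steers. Values run from -0.34 to 0.41, and only the SGCB row has 1 sign throughout each group.

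Single steers stood high or low for several members. Steer 10-8 held the highest value of DMD (0.30 above the gene mean on the log2 scale), SGCA (0.26), SSPN (0.21) and DTNA (0.24), and the lowest value of SGCD (-0.21) and SNTB1 (-0.34). Steer 10-9, of the same group, held the lowest DMD (-0.22) and SSPN (-0.34). In the low-NFMP group, 3-1 was high for DMD (0.18) and SSPN (0.19), whereas 3-3 was low for both, at -0.20 and -0.27, and highest for SNTB1 (0.38). The biological coefficient of variation that edgeR fitted for steers within groups had a median of 18.0% over the 8 genes, with a range from 17.3% to 19.5%, against 24.1% for all tested genes and 18.6% for those with a mean of at least 900 normalized counts. The lowest member count in a library was 881 reads (SGCA in steer 3-8), for which counting alone gives an SD of 3.37%.

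In CPM, not divided by transcript length, DMD stood first in 6 of 6 steers, with 1784 ± 267 CPM (SD, n = 6). This order is one of reads from 3′ mRNA libraries. How evenly the transcripts of different genes yield such reads was not measured, so the order does not rank transcript numbers. SSPN followed with 448.4 ± 72.0 CPM, DTNA with 359.2 ± 38.2 CPM and SGCD with 308.2 ± 29.96 CPM. The ranges of SSPN and DTNA overlapped, and their order was exchanged in steer 3-3, and the ranges of DTNA and SGCD overlapped narrowly although DTNA was above SGCD in 6 of 6 steers. DAG1 ranked 5 in every steer, at 210.6 ± 14.7 CPM, apart from its neighbours in the order. The last 3 genes were SGCB (92.3 ± 16.9 CPM), SNTB1 (77.0 ± 13.8 CPM) and SGCA (60.9 ± 8.83 CPM). The range of SNTB1 overlapped those of SGCB and SGCA, and it changed places with each of them in some steers, whereas SGCB was above SGCA in 6 of 6 steers and their ranges did not overlap. Summed over the 8 genes, high-NFMP steers held 3352 ± 443 CPM and low-NFMP steers 3329 ± 278 CPM (SD, n = 3 each).

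A share of the summed reads is free of library size. DMD took between 49.96% and 57.23% of the reads of the 8 genes in a library, with means of 54.6% ± 2.76 for high NFMP and 51.9% ± 2.85 for low NFMP (SD, n = 3 each, exact two-sided permutation p = 0.3). The share of SGCB was 2.25%, 2.26% and 2.71% in the high-NFMP steers and 2.76%, 2.98% and 3.71% in the low-NFMP steers, and its exact two-sided permutation p of 0.1 is the smallest the design allows. For the other 6 genes the exact permutation p lay between 0.4 and 0.9.

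After the values had been seen, reads of SGCA, SGCB and SGCD were set against each other within each steer. Of these 3 pairs, 1 separated the groups. The ratio of SGCA to SGCB reads was 0.714, 0.837 and 0.897 in steers 3-8, 10-8 and 10-9, and 0.551, 0.574 and 0.502 in steers 3-1, 3-3 and 10-16. Its means were 0.816 ± 0.093 (SD, n = 3) and 0.542 ± 0.037 (SD, n = 3), with an exact two-sided permutation p of 0.1, the smallest possible. The other 2 pairs overlapped between the groups, with an exact permutation p of 0.2 for SGCA to SGCD and 0.5 for SGCB to SGCD.

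**Figure D3:**
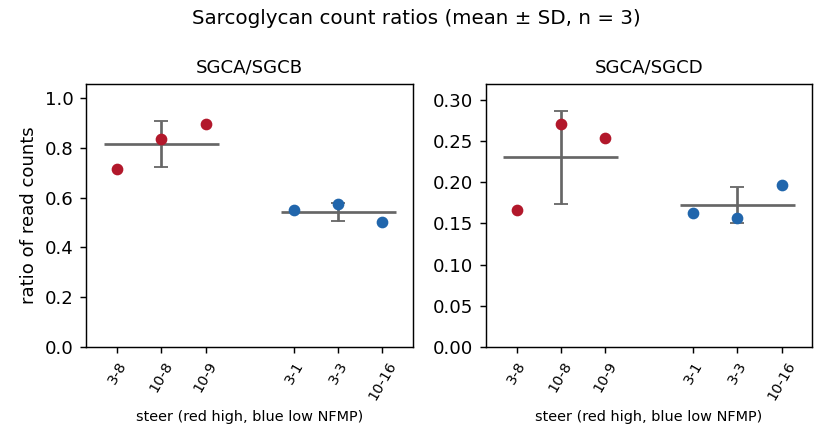
Ratio of SGCA reads to SGCB reads (left) and to SGCD reads (right) in each steer, red for high and blue for low NFMP, with group mean and SD (n = 3) in grey. All 3 high-NFMP steers lie above all 3 low-NFMP steers in the left panel but not in the right, and the pairs were chosen after the values were seen.

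The other subunits and paralogs were described from a list of 9 genes, of which 8 were listed in the counts and 7 were tested. None was called (edgeR), and none had an unadjusted p below 0.05. The highest of the list was DTNB, β-dystrobrevin, at 87.2, 87.8 and 72.2 against 44.97, 59.2 and 67.6 normalized counts, a log2 fold change of 0.52 (SE 0.30, edgeR adjusted p = 0.547). Utrophin (UTRN), the paralog of dystrophin that takes its place at the synapse, had a log2 fold change of 0.11 (SE 0.19, edgeR adjusted p = 0.860). Its reads per 100 DMD reads were 6.14, 3.18 and 6.003 in steers 3-8, 10-8 and 10-9 and 4.25, 5.59 and 4.89 in steers 3-1, 3-3 and 10-16, so the groups overlapped (exact two-sided permutation p = 0.8).

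**Figure D4:**
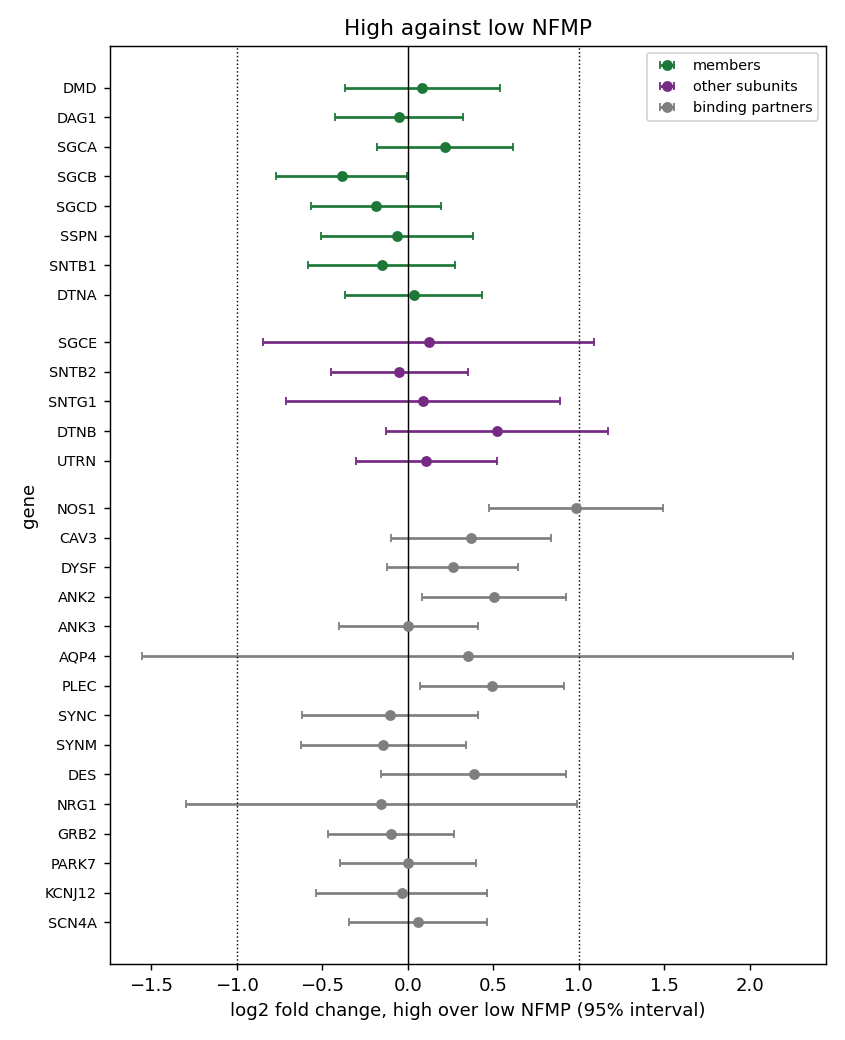
Log2 fold change of high over low NFMP (horizontal axis, points) with its 95% interval (bars) for the 8 members, 5 of the other subunits tested and all 15 binding partners. Dotted lines mark a 2-fold difference, which no point passes, and NOS1 lies nearest to it at 0.98.

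Among the 15 genes of proteins that bind the complex or lie beside it at the membrane, all were tested and 3 had an unadjusted p below 0.05, all higher in the high-NFMP group, where 11.5% of all tested genes had such a p in either direction. The largest difference was in NOS1, the neuronal nitric oxide synthase that the complex holds at the membrane. NOS1 had 881.6, 780.1 and 692.0 normalized counts in steers 3-8, 10-8 and 10-9 and 557.9, 350.7 and 282.7 in steers 3-1, 3-3 and 10-16. All 3 high-NFMP steers were above all 3 low-NFMP steers, as with 7.97% of all tested genes. The means were 784.6 ± 94.9 (SD, n = 3) and 397.1 ± 143 (SD, n = 3), a log2 fold change of 0.98 (SE 0.24, edgeR unadjusted p = 0.000965 and adjusted p = 0.0892). The fold change was 1.98, with a 95% interval from 1.39 to 2.81, so NOS1 fell just short of the 2-fold limit and was not called. It met both criteria of the threshold in 7 of the 15 alternative fits, and its adjusted p ranged from 0.0119 without a filter on low counts to 0.339 without steer 3-3. The log2 ratio of high over low means was 0.96 in the steers whose label begins with 3 and 1.38 in those whose label begins with 10. The former set 3-8 against 3-1 and 3-3, and the latter set 10-8 and 10-9 against 10-16 alone. Of the 6 adipocyte markers, 3 had an unadjusted p below 0.05 in the same direction and none was called by edgeR, their summed levels overlapped between the groups (270.0 CPM in steer 10-9 against 280.1 in 3-1 and 328.4 in 3-3), and their part in the NOS1 difference was not tested.

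The other 2 were linkers to the cytoskeleton. ANK2, an ankyrin that takes part in placing dystrophin and dystroglycan at the membrane, had 1160, 1701 and 1167 normalized counts against 992.3, 1004 and 846.0, a log2 fold change of 0.50 (SE 0.20, edgeR adjusted p = 0.341). PLEC, plectin, which joins the complex to desmin filaments, had 1390, 1841 and 1968 against 1010, 1309 and 1379, a log2 fold change of 0.49 (SE 0.20, edgeR adjusted p = 0.349). In both the groups did not overlap, as with 7.97% of all tested genes in that direction, by a narrow margin for PLEC (1390 in steer 3-8 against 1379 in 10-16). The unadjusted p of ANK2 rose above 0.05 without steer 10-8, where its log2 fold change was smaller (0.33), and also without 10-16 (0.46) and with age as a term (0.53), where its size stayed close to 0.50. That of PLEC did so without steer 10-8 (0.48), 10-9 (0.41) or 3-1 (0.36) and with age (0.44) or the first label number (0.36) as a term. The lowest log2 fold change of the list was that of NRG1, neuregulin, at -0.16 on 12.4 to 36.1 normalized counts a steer. Desmin (DES), the intermediate filament of the fibre, had 20087, 34942 and 43632 against 24661, 23878 and 26991, with steer 3-8 lowest of all, and a log2 fold change of 0.39 (SE 0.25, edgeR adjusted p = 0.599).

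**Figure D5:**
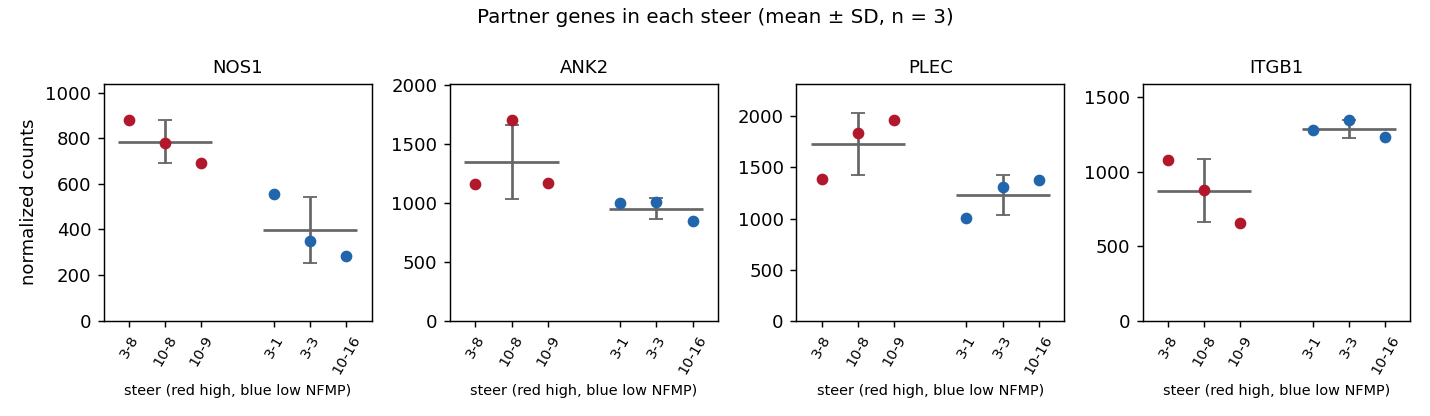
Normalized counts (vertical axes, linear from 0) of NOS1, ANK2, PLEC and ITGB1 in each steer, red for high and blue for low NFMP, with group mean and SD (n = 3) in grey. The groups do not overlap for any of the 4 genes, with NOS1, ANK2 and PLEC higher and ITGB1 lower in the high-NFMP steers. The 4 are shown because their unadjusted p was below 0.05 by edgeR. Among all tested genes 7.97% separate the groups in the higher direction and 9.16% in the lower.

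Outside the fibre, none of the 10 genes of the laminins, agrin, perlecan and other dystroglycan ligands had an unadjusted p below 0.05 by edgeR. The log2 fold changes ran from -0.38 for agrin (AGRN) to 0.42 for biglycan (BGN), with a median of -0.06. LAMA2, the laminin chain of the muscle basement membrane, had 2927 normalized counts on average for high NFMP and 3605 for low NFMP, and its log2 fold change was -0.30 (SE 0.23, edgeR adjusted p = 0.650). Of the 18 genes tested that build the laminin-binding sugar of dystroglycan, none had an unadjusted p below 0.05, and the values lay between -0.27 for LARGE2 and 0.37 for DPM3.

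Integrin α7β1 is the second laminin receptor of the fibre. Of its 9 list genes 1 had an unadjusted p below 0.05 by edgeR, against 11.5% of all tested genes. ITGB1, the β1 chain, had 1079, 879.0 and 656.9 normalized counts in the high-NFMP steers and 1278, 1348 and 1231 in the low-NFMP steers. The groups did not overlap, as with 9.16% of all tested genes in that direction. The low-NFMP steers lay closer together than the high-NFMP steers. The log2 fold change was -0.56 (SE 0.20, edgeR unadjusted p = 0.0136 and adjusted p = 0.286), and it was -0.38 with an unadjusted p of 0.061 by edgeR without steer 10-9. β1 integrin is also made by most other cells of muscle. Its partner ITGA7 had a log2 fold change of -0.30 (SE 0.27, edgeR adjusted p = 0.712), and the highest of the list was talin 2 (TLN2) at 0.31 (SE 0.18, edgeR adjusted p = 0.543).

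Over the 5 lists of other genes, 59 were tested and none was called by edgeR, against 2.53% higher and 1.36% lower among all tested genes, while 4 (NOS1, ANK2, PLEC and ITGB1) had an unadjusted p below 0.05, a smaller share than the 11.5% of all tested genes. DESeq2 also called none of them and gave 4 an unadjusted p below 0.05, and quantile normalization with limma called NOS1 and gave 5 such a p. The median log2 fold change of the 59 was 0.11, against 0.02 for all tested genes.

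The genes whose pattern over the 6 steers lay nearest to those of dystrophin and dystroglycan were found by the root mean square difference of log2 normalized counts, each centred on its own mean, among 10867 genes with a mean of at least 50 normalized counts. For DMD they were C10H15orf41 (0.043), EDC4 (0.064) and TOB1 (0.066), where the median over all genes compared was 0.34. For DAG1 they were EIF4G1 (0.040), KCMF1 (0.040) and DNAI1 (0.044), with a median of 0.29. A gene with the same value in all 6 steers would lie 0.095 from DAG1 and 0.193 from DMD. No other member of the complex was among the 3 nearest genes of either.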

How the data were processed

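Counts of 6 LT libraries, 1 per steer, were analysed, and each steer was grouped from its label. The authors prepared 3′ mRNA libraries and deposited unnormalized counts of reads for each gene symbol. Their methods name Tophat2 with HTSeq in one place and Bowtie2 with unique and multiple alignments in another, on UMD3.1, so genes that overlap or resemble each other can share reads. Whether strand was used in counting is not stated by those sources.

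The counts were fitted in R 4.3.3 with edgeR 4.0.16 (default filter with a minimum count of 10, TMM factors, robust quasi-likelihood test, Benjamini-Hochberg adjustment over all 15039 tested of 23015 rows). Extra rows of repeated symbols (176) were tested separately. Intervals were built from the quasi-likelihood standard error. Alternatives were other filters and size factors, DESeq2 1.42.0, quantile normalization with limma 3.58.1 (pseudocount 1), terms for age or label number, and omission of single steers. Division of levels by protein length was not run. The procedures were tested on simulated counts.

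The 8 members and the gene lists were chosen with earlier results of these data known. Named genes were the members, list genes with an unadjusted p below 0.05 or the highest or lowest fold change of their list, the nearest genes in pattern, and overlapping genes, with further list genes named after their values were seen. Some list genes are not reported here, SGCZ was not analysed here, and SNTG2 was too rare to test. Steers are separate animals with 1 library each, so technical spread was not measured. Counting errors assume independent reads, which reads without molecular identifiers are not.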

Additional observations from a re-analysis of the deposited data

How the results depend on the processing

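No alternative brought any of the 8 members past the p and fold change threshold, and over 15 alternatives for each gene 94 of 120 estimates kept their sign and their side of an unadjusted p of 0.05. SGCB went above that p in 12 of its 15. Its log2 fold change was -0.40 without a filter on low counts, -0.38 with at least 10 counts in every library, with RLE factors and with DESeq2, -0.35 with upper quartile factors, -0.36 after quantile normalization with limma and -0.33 with age as a term. It stayed below that p with library totals alone (-0.45) and with the first label number as a term (-0.46). With single steers omitted it lay between -0.47 and -0.23, and omitting any steer but 3-3 moved its p above 0.05. The sign turned in 14 estimates. DTNA was at -0.046 with library totals alone and -0.034 with age as a term, DMD at -0.013 after quantile normalization with limma, and DAG1 and SSPN at 0.025 and 0.069 with age as a term. With single steers omitted the log2 fold changes ran from -0.030 to 0.222 for DMD, from -0.090 to 0.022 for DAG1, from -0.199 to 0.092 for SSPN, from -0.283 to 0.015 for SNTB1 and from -0.056 to 0.121 for DTNA. Of the other list genes, 1 (NOS1) was called with upper quartile factors, quantile normalization with limma, age as a term or the first label number as a term, and 0 to 1 with single steers omitted. Over all genes, 586 were called, 969 without a filter on low counts, where more genes were tested, and 364 with at least 10 counts in every library, where fewer were. They divided into 381 higher and 205 lower, against 366 and 378 without steer 3-8, and the split was 484 and 174 without 3-3. Other causes were not tested. No paired analysis was possible because the labels number no replicates, and the first label number, which both groups share and whose meaning is not stated, was fitted as a term instead. Division by protein length was not run, since no lengths were at hand.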
